A study of Mus musculus with 16 samples.

Results

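MKα3+ and MKα3− cells that had received vehicle in place of added laminin-332 (LN332) were compared, so no laminin was added to either group. The members are the 8 libraries whose labels and count columns name a vehicle-treated sample, out of 16 libraries in the series: 4 of MKα3− cells and 4 of MKα3+ cells, numbered 1 to 4 in each group. MKα3− is an immortalized line of mouse keratinocytes without integrin α3. MKα3+ cells are the same null cells reconstituted with human α3, so both groups lack mouse α3 and differ by the human subunit and by their history as separate lines. Each group is a single line, and an effect of α3 and a difference between these lines that arose in culture cannot be told apart. Cells were grown at 33 °C on dishes coated with collagen, in a low-calcium medium with supplements, the promoter that drives human α3 is not given in the sources used here, and vehicle (PBS with glycine and sodium azide) was left on the cells for 16 to 24 h before RNA was taken.

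Integrin α3β1 is a transmembrane receptor made of an α3 and a β1 chain. In the basal layer of the epidermis it binds LN332, the main adhesive laminin of the basement membrane, which keratinocytes also make and deposit themselves. Engaged integrins gather focal adhesion proteins, anchor actin and signal through kinases such as FAK, Src and ERK. Through these routes α3β1 is known to influence spreading, migration, survival, matrix remodelling and the secretion of paracrine factors by keratinocytes.

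The measurements are RNA-seq read counts for 14474 genes. Total counts per library were between 27327730 and 28325042 in MKα3− cells and between 24235758 and 27369778 in MKα3+ cells. Levels are given below as CPM (counts per 1e6 counts, scaled by TMM factors) in order of replicate number, and differences as MKα3+ minus MKα3− on the log2 scale (log2 fold changes) with standard errors from limma-voom. A gene is called higher or lower at a Benjamini-Hochberg adjusted p under 0.05 over all genes where the absolute log2 fold change also exceeds 0.5. The study calls its in vitro data points experimental replicates, but nothing in the sources used here says that the 4 libraries of a group came from separate cultures, so p-values measure the spread between these libraries, which may be technical. A single number in parentheses after a gene symbol is its log2 fold change in vehicle, and "lost in" gives how many of 16 alternative settings (listed with the processing) no longer called the gene, where that is above 0.

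The libraries numbered 1 stood apart from the others of their group. The chi-square per degree of freedom between replicate 1 and the other MKα3+ replicates was between 42.9 and 52.7, against 5.43 to 10.5 among replicates 2 to 4. For MKα3− cells it was between 36.6 and 61.1 with replicate 1 and between 18.1 and 31.1 without it. Without both libraries numbered 1, 2410 genes were called, 1435 higher and 975 lower in MKα3+ cells. The share of mitochondrial counts was 1.40 ± 0.271% in MKα3+ cells and 1.20 ± 0.213% in MKα3− cells (SD, n = 4, two-sided exact permutation p = 0.257, where the smallest possible p is 0.0286). The share of *Rn45s* counts was 0.550 ± 0.0688% and 0.679 ± 0.161% (SD, n = 4, exact permutation p = 0.229).

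All 16 keratinocyte markers on the list were measured, and their summed level was 12633 to 19616 CPM in MKα3− cells and 12642 to 18519 CPM in MKα3+ cells. The sum is weighted toward genes of high level. Of the 16 markers 0 were called higher and 3 lower, *Tfap2c*, *Perp* and *Lamb3* (18.8% called against 18.5% of all genes, median log2 fold change -0.20). The basal keratins *Krt5* (3285 to 5702 CPM in MKα3− cells, 2466 to 3646 CPM in MKα3+ cells) and *Krt14* (2905 to 5027 and 4528 to 6637 CPM) were present in every library. Genes of macrophage type were also detected, unevenly between libraries. *Lyz2*, a lysozyme of myeloid cells, was at 29.4, 34.8, 4.92 and 5.18 CPM in MKα3− and 45.3, 53.2, 229 and 237 CPM in MKα3+ cells. *Adgre1*, which encodes the macrophage antigen F4/80, was at 4.88, 4.27, 0.106 and 0.311 CPM in MKα3− and 7.896, 7.297, 34.9 and 34.5 CPM in MKα3+ cells. Replicates 3 and 4 of MKα3+ cells were the highest and replicates 3 and 4 of MKα3− cells the lowest for both genes. *Itgam* (0.319 to 3.73 CPM in MKα3− cells, 5.02 to 25.5 CPM in MKα3+ cells) had the same order.

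Of the 10 immune markers on the list 8 were measured, with a summed level of 41.1 to 92.3 CPM in MKα3− cells and 108 to 382 CPM in MKα3+ cells. *Lyz2*, *Itgam* and *Csf1r* were called higher with limma-voom, 6 of the 8 with edgeR and with DESeq2, and 0 of the 8 in limma-voom when MKα3+ replicates 3 and 4 were left out. The B cell marker *Cd79a* was at 0.246 to 0.760 CPM in MKα3− cells and 0.321 to 0.720 CPM in MKα3+ cells, and the T cell and Langerhans cell markers on the list were not among the genes measured. With LN332, *Lyz2* was at 3.61, 28.6, 50.8 and 8.36 CPM in MKα3− cells and 4.498, 47.1, 77.4 and 237 CPM in MKα3+ cells. In bulk RNA, fewer cells of a type and less RNA per cell cannot be told apart. Of the 1582 genes called higher in MKα3+ cells, 38 had replicates 3 and 4 both at more than 2 times the level of replicates 1 and 2, among them *Itgb2*, *Rac2*, *Emilin2*, *Apoe*, *Ctss*, *Spi1* and *C1qc*, and the part of macrophage-type RNA in these results was not tested. With MKα3+ replicates 3 and 4 left out, 2002 genes were called, of which 1870 were among the calls from all 8 libraries.

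**Figure D1:**
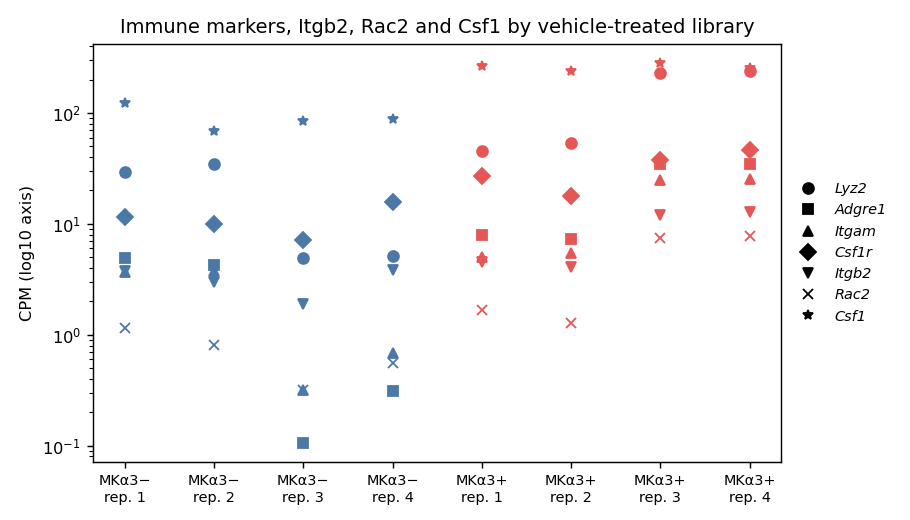
CPM on a log10 axis in each of the 8 vehicle-treated libraries (blue for MKα3−, red for MKα3+, by replicate number) for 4 immune markers, for *Itgb2* and *Rac2*, and for the growth factor gene *Csf1*. *Lyz2*, *Adgre1*, *Itgam*, *Itgb2* and *Rac2* stand highest in MKα3+ replicates 3 and 4. *Csf1* is between 238 and 282 CPM in all 4 MKα3+ libraries, and its relation to the immune markers was not tested.

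*Itga3* itself was counted at 285, 211, 303 and 237 CPM in MKα3− and 211, 312, 309 and 276 CPM in MKα3+ cells, a log2 difference of 0.09 ± 0.15 (SE, adjusted p = 0.694). The restored subunit is human, the reads were mapped to mouse, and the part of *Itga3* removed in the null cells is not given in the sources used here, so this count does not check the labels of the lines.

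Of the 14474 genes, 2676 (18.5%) were called in vehicle-treated cells, 1582 (10.9%) higher and 1094 (7.56%) lower in MKα3+ cells. Small changes were divided evenly between the directions and large ones were not. Between 0.5 and 1 on the log2 scale 683 genes were higher and 631 lower, between 1 and 2 the counts were 518 and 327, between 2 and 4 they were 321 and 110, and over 4 they were 60 and 26. The median over all genes was 0.01. In 2418 of the 2676 called genes the 4 and 4 libraries did not overlap, where 32.9% of all genes showed no overlap.

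The same difference between the lines was measured in the 8 LN332-treated libraries, which share no sample with the vehicle comparison. Of the 2676 genes called in vehicle, 2674 had the same sign there and 2178 were also called, where 20.6% of all genes were called in LN332, 11.7% higher and 8.92% lower. The exceptions in sign were *Adgrf4*, with log2 fold changes of 0.53, lost in 8 in vehicle and -0.10 in LN332, and *Snord22*, with -0.62, lost in 10 and 0.23. A test of the difference between the vehicle and LN332 contrasts called 0 genes with limma-voom, with 164 genes at an unadjusted p under 0.05. No difference described below was therefore shown to be particular to cells without added laminin.

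**Figure D2:**
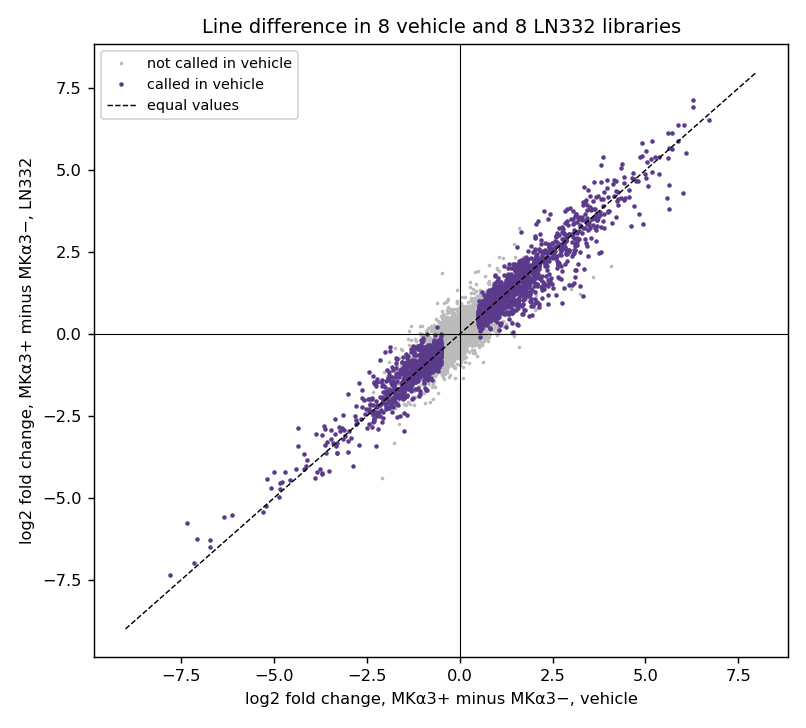
Each point is a gene, with the log2 fold change between MKα3+ and MKα3− cells in the vehicle libraries on the x axis and in the LN332 libraries on the y axis, and the dashed line marks equal values. Of the 2676 genes called in vehicle (purple), 2674 lie in the quadrants where both signs are the same.

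To describe function, 51 lists of genes were compiled, 45 by pathway, complex or gene family and 6 of cell type markers. They hold 1514 measured genes. Each list is read against the 10.9% of all genes called higher and the 7.56% called lower. Shares above both backgrounds were found among Wnt, tight junction, matrix glycoprotein and growth factor genes, shares above the background for higher genes alone among simple epithelial keratins, matrix proteases and YAP-TEAD genes, and shares above the background for lower genes alone among epidermal transcription factors, desmosomal genes and Hox genes. Oxidative phosphorylation, DNA replication and proteasome genes were called far below the background.

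**Figure D3:**
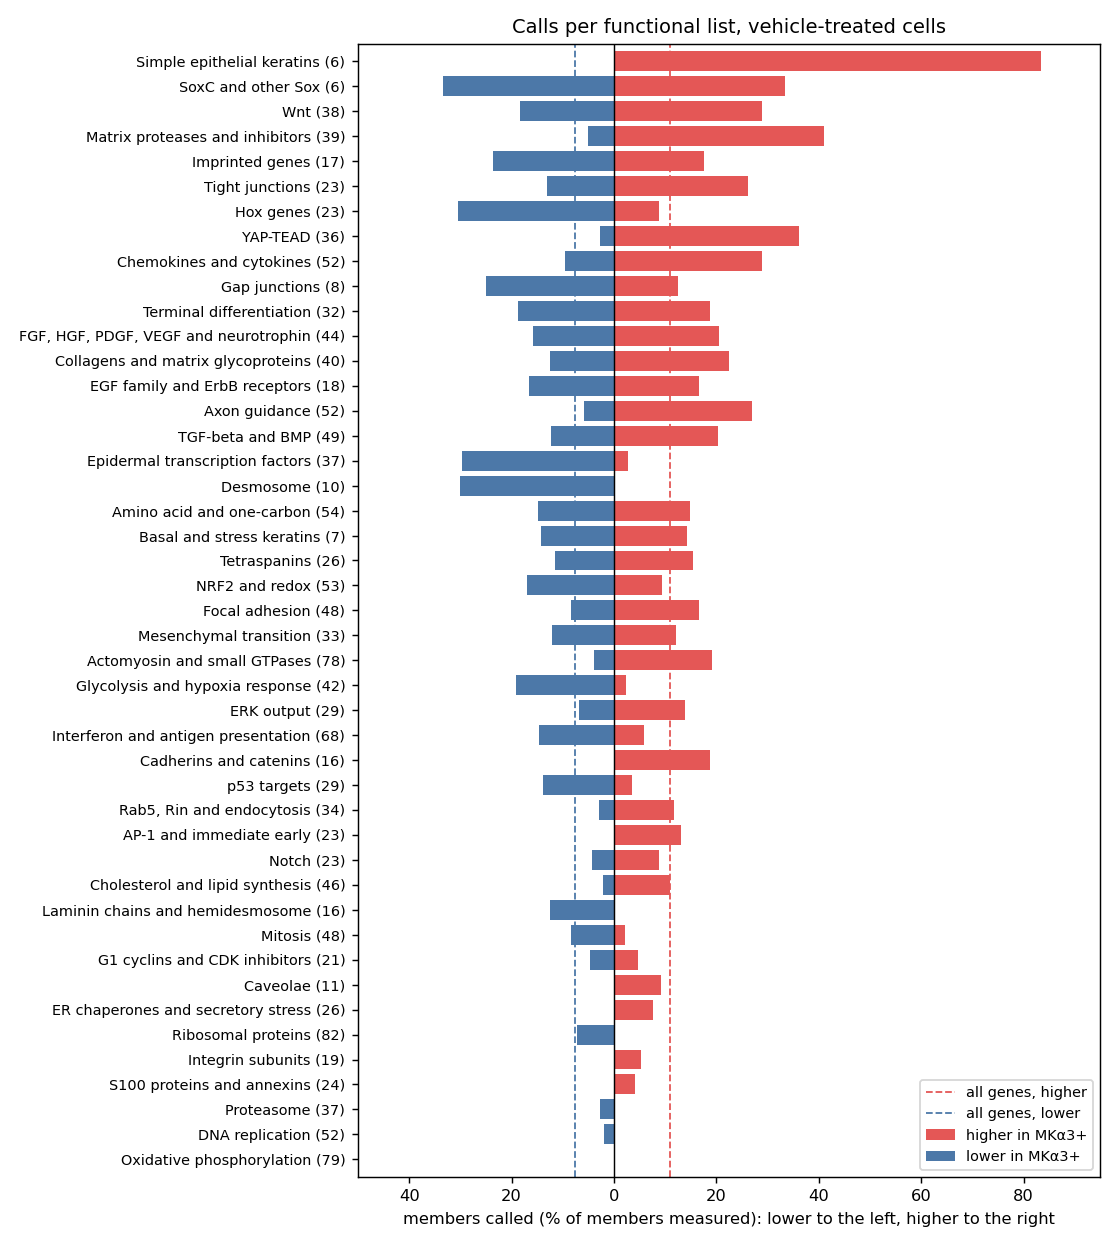
Bars give, for each of the 45 functional lists (number of measured members in parentheses), the percentage of members called higher in MKα3+ cells to the right and lower to the left, and dashed lines give the same percentages over all genes, 10.9 and 7.56. The bars run from 5 of 6 members of the simple epithelial keratin list called higher to 0 of 79 oxidative phosphorylation genes called in either direction.

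Among the adhesion receptors themselves few differences were called. Of 19 integrin subunits measured, 1 was called higher and 0 lower (median log2 fold change 0.10), 5.26% against 18.5% of all genes. *Itgb1*, the partner of α3, was at 412, 518, 532 and 552 CPM in MKα3− and 468, 678, 642 and 638 CPM in MKα3+ cells, a log2 difference of 0.26 ± 0.18 (SE, adjusted p = 0.297). The collagen receptor subunit *Itga2* was at 2.37 to 8.67 CPM in MKα3− cells and 5.73 to 11.4 CPM in MKα3+ cells, with a log2 difference of 1.22 ± 0.50 (SE, adjusted p = 0.0796) and overlapping groups. *Itgb2*, which encodes the β2 chain of leukocyte integrins, was the gene called, at 3.79, 2.98, 1.88 and 3.799 CPM in MKα3− and 4.55, 4.05, 12.1 and 12.9 CPM in MKα3+ cells, a log2 difference of 1.29 ± 0.41 (SE, adjusted p = 0.0253, lost in 5). Its highest values were in MKα3+ replicates 3 and 4, where *Lyz2* and *Adgre1* were also highest, and without these libraries 0 integrin genes were called. The epithelial subunits *Itga6* (-0.31), *Itgb4* (-0.09), *Itgav* (0.18) and *Itgb6* (0.13) were not called.

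Laminin and hemidesmosome genes had 0 of 16 members higher and 2 lower. *Lamb3*, the β3 chain of LN332 (Entrez 16780, chromosome 1, 193294353 to 193343878), was at 888, 961, 1037 and 1175 CPM in MKα3− and 651, 549.8, 674 and 703 CPM in MKα3+ cells, a log2 difference of -0.66 ± 0.14 (SE, adjusted p = 0.00195). All 4 MKα3+ libraries were below all 4 MKα3− libraries. *Lama3*, the α3 chain of LN332, was not called, with a log2 fold change of -0.39 (adjusted p = 0.0663). *Dst*, whose epithelial product anchors keratin filaments at hemidesmosomes, had a log2 difference of -0.63 ± 0.21 (SE, adjusted p = 0.0332, lost in 8) and overlapping groups. These were the genes called.

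Tetraspanins, membrane proteins that associate with laminin-binding integrins, changed in both directions, with 4 of 26 higher and 3 lower. *Cd81* was at 5.93, 6.31, 7.33 and 7.08 CPM in MKα3− and 106, 103, 115 and 97.1 CPM in MKα3+ cells, a log2 difference of 3.98 ± 0.13 (SE, adjusted p = 1.79e-12). The lowest MKα3+ library was more than 10 times the highest MKα3− library. *Tspan13* (1.71), *Tspan7* (1.58) and *Tspan33* (1.29) were also higher, and *Tspan6* (-3.15), *Tspan15* (-2.42) and *Upk1b* (-1.15) were lower. *Cd151*, the tetraspanin best known as a partner of α3β1, was not called (-0.07, adjusted p = 0.689).

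Focal adhesion genes, which link integrins to actin, had 8 of 48 members higher and 4 lower (median 0.22). *Nedd9*, a docking protein of FAK and Src signalling, was at 13.4, 13.2, 11.4 and 15.5 CPM in MKα3− and 42.7, 39.8, 41.3 and 43.96 CPM in MKα3+ cells, a log2 difference of 1.66 ± 0.13 (SE, adjusted p = 4.51e-08). *Arhgef7*, the Rac and Cdc42 exchange factor β-PIX, was at 76.9 to 81.3 CPM in MKα3− cells and 162 to 184 CPM in MKα3+ cells, a log2 difference of 1.09 ± 0.07 (SE, adjusted p = 5.34e-09). The Rac exchange factor gene *Dock1* was lower (-0.89), as were the LIM protein genes *Trip6* (-1.38) and *Csrp1* (-0.82, lost in 1) and the tensin *Tns4* (-0.72). Its relatives *Tns1* (0.85, lost in 5) and *Tns3* (0.74) were higher.

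Matrix glycoproteins secreted into or around the basement membrane were among the larger changes. Of 40 collagens and matrix glycoproteins 9 were higher and 5 lower, 35.0% called against 18.5% of all genes. *Fbln2*, an extracellular glycoprotein that binds laminins and fibronectin (Entrez 14115, chromosome 6, 91212460 to 91272540), was at 35.97, 43.03, 52.8 and 81.03 CPM in MKα3− and 1163, 1131, 1227 and 1228 CPM in MKα3+ cells, a log2 difference of 4.55 ± 0.22 (SE, adjusted p = 3.05e-10). The groups did not overlap. *Sparc*, a collagen-binding matricellular protein, was at 25.02, 43.5, 34.00 and 34.4 CPM in MKα3− and 171, 271, 234 and 212 CPM in MKα3+ cells, a log2 difference of 2.71 ± 0.23 (SE, adjusted p = 1.54e-07). *Fn1*, fibronectin, was at 3.75, 7.56, 8.08 and 9.88 CPM in MKα3− and 24.7, 47.7, 30.8 and 27.8 CPM in MKα3+ cells, a log2 difference of 2.19 ± 0.32 (SE, adjusted p = 6.24e-05).

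Thrombospondin genes moved in opposite directions. *Thbs1* was at 683, 857, 681 and 1154 CPM in MKα3− and 1788, 3200.4, 4103 and 3526 CPM in MKα3+ cells, a log2 difference of 1.88 ± 0.26 (SE, adjusted p = 4.19e-05), whereas *Thbs2* was at 8.53, 9.12, 19.3 and 8.91 CPM in MKα3− and 0.837, 1.24, 1.097 and 0.504 CPM in MKα3+ cells, a log2 difference of -3.61 ± 0.58 (SE, adjusted p = 1.59e-04). *Spp1*, osteopontin, was at 0.414 to 0.744 CPM in MKα3− cells and 4.69 to 9.39 CPM in MKα3+ cells, a log2 difference of 3.55 ± 0.49 (SE, adjusted p = 3.20e-05), with another gene over 18.8% of its exon bases. The neighbouring chains *Col4a1* (1.52) and *Col4a2* (0.99, lost in 1) of basement membrane collagen IV were higher, in a region of chromosome 8 where the median over the genes within 10 Mb was 0.57. *Col16a1* (-2.42), *Col27a1* (-1.43, lost in 3), *Ecm1* (-1.14) and *Fbln1* (-0.81, lost in 9) were lower. *Emilin2* (2.27, lost in 7) was called higher with its highest values, 1.16 to 5.86 CPM over the MKα3+ libraries, in replicates 3 and 4.

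Secreted proteases and their inhibitors were called higher in 16 of 39 members and lower in 2, 46.2% against a background of 18.5%, with a median of 0.50. *Adamts1*, a metalloprotease that cleaves proteoglycans, was at 2.07, 3.798, 4.11 and 3.76 CPM in MKα3− and 24.2, 91.2, 89.2 and 75.7 CPM in MKα3+ cells, a log2 difference of 4.21 ± 0.54 (SE, adjusted p = 1.60e-05). MKα3+ replicate 1 was the lowest of its group and still above every MKα3− library. In plasminogen activation, *Plau*, urokinase, was at 907, 462, 482 and 535 CPM in MKα3− and 1639, 1301, 1536 and 1246 CPM in MKα3+ cells, a log2 difference of 1.31 ± 0.23 (SE, adjusted p = 3.61e-04). Tissue plasminogen activator *Plat* was higher (0.83, lost in 5), in a region of chromosome 8 with a median of 0.65. The urokinase receptor *Plaur* had a log2 fold change of 0.50 and was not called, though its 4 and 4 libraries did not overlap.

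*Thbd*, thrombomodulin, was at 0.667, 1.32, 1.66 and 1.73 CPM in MKα3− and 12.95, 11.1, 14.7 and 11.5 CPM in MKα3+ cells, a log2 difference of 3.29 ± 0.26 (SE, adjusted p = 6.27e-08), and *Tfpi*, tissue factor pathway inhibitor, was at 0.319 to 0.622 CPM in MKα3− cells and 2.52 to 3.13 CPM in MKα3+ cells, a log2 difference of 2.55 ± 0.30 (SE, adjusted p = 6.71e-06). The metalloprotease genes *Mmp12* (1.97, lost in 8), *Mmp24* (1.505), *Mmp15* (1.06) and *Mmp11* (0.99) and the inhibitors *Timp1* (1.10) and *Timp2* (0.83) were called higher. *Mmp9*, a gelatinase, was at 9.09, 3.39, 1.98 and 5.73 CPM in MKα3− and 12.6, 6.74, 9.87 and 6.26 CPM in MKα3+ cells, a log2 difference of 0.97 ± 0.48 (SE, adjusted p = 0.141), and was not called. The epidermal protease *Mmp28* (-0.90) and the serpin *Serpinb5* (-0.53, lost in 3) were lower.

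YAP and TAZ are coactivators that respond to adhesion and actin tension and drive transcription with TEAD factors. Of 36 genes of this pathway and its targets 13 were higher and 1 lower (38.9% against 18.5%, median 0.29). *Ankrd1*, a common reporter of the pathway, was at 2.702, 0.441, 0.744 and 1.38 CPM in MKα3− and 10.8, 11.1, 16.6 and 11.9 CPM in MKα3+ cells, a log2 difference of 3.54 ± 0.49 (SE, adjusted p = 3.62e-05). The matricellular target *Ccn1* was at 190.3, 146, 108 and 179 CPM in MKα3− and 299, 443, 501 and 417 CPM in MKα3+ cells, a log2 difference of 1.42 ± 0.19 (SE, adjusted p = 3.06e-05). *Ccn2*, of the same family, was at 35.2, 26.7, 27.6 and 44.00 CPM in MKα3− and 82.2, 79.1, 84.6 and 64.3 CPM in MKα3+ cells, a log2 difference of 1.24 ± 0.22 (SE, adjusted p = 3.60e-04), with an antisense gene over 22.9% of its exon bases. No MKα3− library reached the lowest MKα3+ library for any of these 3 genes. The difference in *Ccn2* was 0.68 in the LN332 libraries.

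Further members of the list were called. *Amot*, a scaffold that holds YAP at junctions and actin, was at 3.44, 1.25, 1.91 and 1.42 CPM in MKα3− and 65.2, 47.2, 45.4 and 37.1 CPM in MKα3+ cells, a log2 difference of 4.68 ± 0.37 (SE, adjusted p = 6.04e-08). Its relative *Amotl2* was at 157, 111, 81.4 and 111 CPM in MKα3− and 327, 294, 320.3 and 283 CPM in MKα3+ cells, a log2 difference of 1.45 ± 0.15 (SE, adjusted p = 1.48e-06). *Tead2* was at 0.526 to 1.42 CPM in MKα3− cells and 4.03 to 8.58 CPM in MKα3+ cells, a log2 difference of 3.06 ± 0.35 (SE, adjusted p = 4.88e-06). *Tead1* (0.73), the cofactor *Vgll1* (2.89), the kinase *Lats2* (0.74) and the upstream scaffolds *Wwc1* (0.68) and *Wwc2* (0.67) were called higher. *Yap1* (-0.09) and *Wwtr1* (0.36), which encode YAP and TAZ, were not called. *Nt5e* (-0.93) was the gene called lower.

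TEAD factors bind the letters GGAATG. In the 250 bases before the gene start, this motif was found on either strand in 14 of the 28 members of the list with a promoter sequence in the RefSeq table (GRCm38.p6). It was found in 10.7% of the 10903 tested genes with such a sequence and in 12.6% of all 27025 promoters in the RefSeq table. The upstream sequences of 3 of the genes described above that hold the motif are shown so that the sites can be seen, 5′ to 3′ on the strand of the gene, with the motif or its reverse complement CATTCC in capitals. A match describes the letters only. The list was compiled from genes of the pathway and its targets. The share of its members with the motif therefore does not bear on the difference between the lines. The uncalled *Yap1* and *Wwtr1* also hold the motif, with 1 site each. *Ccn1* (chr3:145649986-145650235, minus strand) has 1 site, 103 bases before the start, *Ankrd1* (chr19:36119845-36120094, minus strand) has 2, at 210 and 123 bases, and *Amotl2* (chr9:102717554-102717803, plus strand) has 1, at 65 bases. *Amot* and *Tead2* have none in this window.
Ccn1: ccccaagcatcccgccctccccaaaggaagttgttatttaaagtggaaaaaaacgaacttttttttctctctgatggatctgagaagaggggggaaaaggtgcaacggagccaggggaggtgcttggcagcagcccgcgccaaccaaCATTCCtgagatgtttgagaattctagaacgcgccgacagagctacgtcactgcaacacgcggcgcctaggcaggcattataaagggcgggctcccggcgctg
Ankrd1: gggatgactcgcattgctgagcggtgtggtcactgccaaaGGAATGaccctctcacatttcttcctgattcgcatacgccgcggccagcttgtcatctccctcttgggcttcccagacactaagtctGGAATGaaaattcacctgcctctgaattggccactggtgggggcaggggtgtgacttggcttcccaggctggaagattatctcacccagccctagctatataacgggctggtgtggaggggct
Amotl2: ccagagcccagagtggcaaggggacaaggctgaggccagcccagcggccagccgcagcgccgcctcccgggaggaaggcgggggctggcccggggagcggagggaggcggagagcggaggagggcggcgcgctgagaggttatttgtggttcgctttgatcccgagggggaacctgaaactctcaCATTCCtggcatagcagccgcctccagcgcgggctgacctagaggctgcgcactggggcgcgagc

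Actin and myosin regulators had 15 of 78 members higher and 3 lower (median 0.23). *Dbn1*, the actin-bundling protein drebrin, was at 5.51, 5.09, 4.002 and 8.704 CPM in MKα3− and 53.4, 34.04, 42.1 and 38.7 CPM in MKα3+ cells, a log2 difference of 2.89 ± 0.25 (SE, adjusted p = 1.90e-07). The nonmuscle myosin heavy chains *Myh10* (1.14) and *Myh14* (1.10) were higher and *Myh9* was not called (0.32, adjusted p = 0.0333). *Tpm1*, tropomyosin, was at 496, 455, 424 and 478 CPM in MKα3− and 898, 857, 912 and 870.0 CPM in MKα3+ cells, a log2 difference of 0.93 ± 0.09 (SE, adjusted p = 7.29e-07). *Rock2* (0.62), *Pak3* (1.23), *Rhou* (0.99), *Evl* (0.99) and the GTPase regulator genes *Arhgap6* (2.34) and *Arhgdib* (1.57) were higher, and *Rnd1* (-0.78) and the formin *Fmnl3* (-0.76) were lower. *Rac2*, a Rac of blood cells, was at 1.16, 0.814, 0.319 and 0.553 CPM in MKα3− and 1.67, 1.28, 7.403 and 7.84 CPM in MKα3+ cells, a log2 difference of 2.37 ± 0.82 (SE, adjusted p = 0.039, lost in 7), with the same 2 high libraries as *Lyz2*.

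In caveolae, the flask-shaped pits of the plasma membrane, 1 of 11 genes was called. *Cavin3* (Entrez 109042, chromosome 7, 105480616 to 105482197), a coat protein of caveolae, was at 1.75, 1.08, 2.34 and 2.28 CPM in MKα3− and 103, 73.2, 100.1 and 102 CPM in MKα3+ cells, a log2 difference of 5.70 ± 0.30 (SE, adjusted p = 5.02e-10). *Cav1* (0.15) and *Cavin1* (0.23) were not called.

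Of 10 desmosomal genes, which join keratin filaments of neighbouring cells, 3 were lower and 0 higher, and all 10 log2 fold changes were negative (median -0.25, where the median of all genes was 0.01). *Dsc3*, desmocollin 3 of the basal epidermis, was at 64.7, 63.03, 112 and 57.03 CPM in MKα3− and 0.582, 0.521, 0.235 and 0.108 CPM in MKα3+ cells, a log2 difference of -7.81 ± 1.04 (SE, adjusted p = 2.35e-05). *Pkp2*, plakophilin 2, was at 20.3, 19.7, 13.1 and 20.4 CPM in MKα3− and 2.69, 1.804, 1.84 and 1.22 CPM in MKα3+ cells, a log2 difference of -3.30 ± 0.31 (SE, adjusted p = 3.73e-07). Neither gene had overlapping groups. *Perp* was at 583 to 781 CPM in MKα3− cells and 364 to 408 CPM in MKα3+ cells, a log2 difference of -0.70 ± 0.12 (SE, adjusted p = 4.13e-04). The plaque genes *Dsp* (-0.07) and *Jup* (-0.12) were not called.

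Adherens junctions had 3 of 16 genes higher and 0 lower (18.8% called against 18.5% of all genes, median 0.36). *Cdh2*, N-cadherin, was at 67.8, 97.7, 85.3 and 128 CPM in MKα3− and 182, 207, 209 and 188 CPM in MKα3+ cells, a log2 difference of 1.09 ± 0.18 (SE, adjusted p = 2.06e-04). *Nectin3* was at 7.97, 11.9, 11.7 and 11.9 CPM in MKα3− and 19.1, 18.2, 19.7 and 17.2 CPM in MKα3+ cells, a log2 difference of 0.79 ± 0.14 (SE, adjusted p = 4.43e-04). *Cdh1*, E-cadherin, had a log2 difference of 0.41 ± 0.17 (SE, adjusted p = 0.0898) and was not called, though every MKα3+ library was above every MKα3− library, and its difference was 0.82 and called in the LN332 libraries. *Ctnnb1*, β-catenin, was the other member called higher (0.50, lost in 8).

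Tight junction genes had 6 of 23 members higher and 3 lower (39.1% against 18.5%). *Cldn3* was at 3.86, 4.03, 7.83 and 8.46 CPM in MKα3− and 86.6, 99.4, 92.1 and 81.95 CPM in MKα3+ cells, a log2 difference of 3.98 ± 0.24 (SE, adjusted p = 2.35e-09). *Cldn6* was at 199, 119, 140.4 and 128 CPM in MKα3− and 327, 280.3, 342 and 291 CPM in MKα3+ cells, a log2 difference of 1.10 ± 0.17 (SE, adjusted p = 1.11e-04). The scaffolds *Tjp1* (0.65), *Pals1* (0.59, lost in 1) and *Cgnl1* (0.58) and the membrane protein *Marveld3* (1.21) were higher. *Cldn1*, the main claudin of the epidermal barrier, was lower (-0.53, lost in 3), as were *Cldn15* (-1.89, lost in 1) and *Jam2* (-1.30, lost in 8). Gap junction genes had 1 of 8 members higher, *Gjc1* (0.54, lost in 3), and 2 lower. *Gjb5*, a connexin of epidermis, was at 20.1, 11.5, 20.6 and 10.9 CPM in MKα3− and 0.619, 0.922, 2.27 and 1.295 CPM in MKα3+ cells, a log2 difference of -3.71 ± 0.50 (SE, adjusted p = 2.76e-05), and the channel *Panx1* was also lower (-0.94).

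Of the 6 keratins measured on the simple epithelial list, which counts *Krt80*, 5 were higher (median 1.49). Of 7 basal and stress keratins 1 was higher and 1 lower (median -0.54). *Krt19* was at 6.597, 3.83, 7.93 and 6.98 CPM in MKα3− and 381, 340.2, 398 and 313 CPM in MKα3+ cells, a log2 difference of 5.87 ± 0.23 (SE, adjusted p = 3.12e-11). *Krt8* was at 585, 504, 528 and 589.8 CPM in MKα3− and 1266, 1175, 1443 and 1282 CPM in MKα3+ cells, a log2 difference of 1.23 ± 0.11 (SE, adjusted p = 1.90e-07). The partner of *Krt8* in simple epithelia, *Krt18*, was at 516, 303, 278 and 299 CPM in MKα3− and 417, 354, 386 and 344 CPM in MKα3+ cells, a log2 difference of 0.15 ± 0.21 (SE, adjusted p = 0.641). The groups of *Krt18* overlapped, and those of *Krt19* and *Krt8* did not.

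*Krt7* was at 1354, 1194, 1122 and 1301 CPM in MKα3− and 2093, 2203, 2251 and 2157 CPM in MKα3+ cells, a log2 difference of 0.81 ± 0.11 (SE, adjusted p = 1.84e-05). *Krt80* (1.76) and the low *Krt20* (3.19, 0.0354 to 0.414 CPM in MKα3− cells and 0.971 to 2.47 CPM in MKα3+ cells) were higher too. Among the basal and stress keratins, *Krt17*, induced in wounded epidermis, was at 821, 675, 876 and 552 CPM in MKα3− and 1494, 1291, 1147 and 1068 CPM in MKα3+ cells, a log2 difference of 0.78 ± 0.15 (SE, adjusted p = 6.89e-04). *Krt15*, a basal and hair bulge keratin, was at 8.95, 1.899, 10.4 and 3.11 CPM in MKα3− and 1.201, 0.762, 0.705 and 0.504 CPM in MKα3+ cells, a log2 difference of -2.64 ± 0.72 (SE, adjusted p = 0.0107, lost in 1). *Krt5*, *Krt14*, *Krt6a* and *Krt16* were not called, with log2 fold changes of -0.54, 0.47, -0.77 and 0.29, and *Krt5* (-0.80) and *Krt6a* (-0.89) were called lower in LN332.

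**Figure D4:**
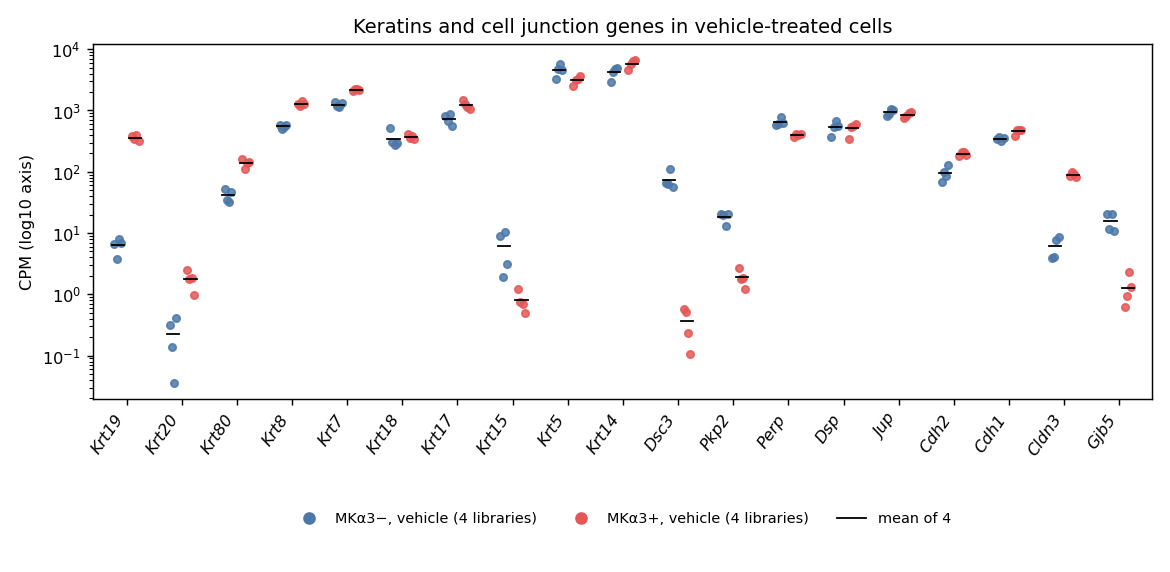
CPM on a log10 axis for keratin and cell junction genes, with a point for each vehicle-treated library (blue for MKα3−, red for MKα3+, 4 each) and a line at the mean of 4. *Krt19* and *Cldn3* are above, and *Dsc3*, *Pkp2* and *Gjb5* below, with no overlap between the lines, whereas the points of *Dsp*, *Jup* and *Krt18* overlap.

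Genes of terminal differentiation changed in both directions, 6 of 32 higher and 6 lower. *Sbsn* was at 39.5, 32.6, 63.2 and 43.2 CPM in MKα3− and 11.97, 10.5, 14.1 and 14.7 CPM in MKα3+ cells, a log2 difference of -1.76 ± 0.22 (SE, adjusted p = 1.12e-05). *Dmkn*, like *Sbsn* a secreted protein of the upper epidermis from the same cluster, was at 117, 122, 218 and 165 CPM in MKα3− and 37.7, 48.8, 60.5 and 69.8 CPM in MKα3+ cells, a log2 difference of -1.51 ± 0.25 (SE, adjusted p = 2.41e-04). The lipid transporter *Abca12* (-1.04), the protease inhibitor *Cst6* (-1.28) and the protease *Klk8* (-0.88, lost in 5) were lower. *Tchh* (1.55), *Muc1* (1.44), *Cdsn* (0.85, lost in 1), *Casp14* (2.02) and *Loricrin* (0.60, lost in 1) were higher, the last at 4.07 to 5.08 CPM in MKα3− cells and 6.33 to 8.34 CPM in MKα3+ cells.

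Of 37 transcription factors of the epidermal programme 11 were lower and 1 higher (median -0.40, 7.56% of all genes lower). *Tfap2c*, an AP-2 factor of keratinocytes, was at 2.35, 2.37, 4.75 and 2.18 CPM in MKα3− and 0.327, 0.241, 0.196 and 0.108 CPM in MKα3+ cells, a log2 difference of -3.64 ± 0.56 (SE, adjusted p = 1.03e-04). *Sox21*, a hair shaft factor, was at 12.98, 15.2, 15.8 and 16.4 CPM in MKα3− and 2.44, 1.12, 0.862 and 0.971 CPM in MKα3+ cells, a log2 difference of -3.58 ± 0.28 (SE, adjusted p = 4.46e-08). *Cebpa*, which acts in keratinocyte differentiation, was at 25.4, 11.5, 23.5 and 13.8 CPM in MKα3− and 3.35, 5.77, 5.17 and 4.497 CPM in MKα3+ cells, a log2 difference of -1.93 ± 0.32 (SE, adjusted p = 1.91e-04). All 3 fell without overlap. *Elf3* (-0.77, lost in 2), *Grhl3* (-0.64, lost in 3), *Dlx3* (-0.68, lost in 9), *Foxc1* (-0.66), *Maf* (-0.62, lost in 4) and *Cebpd* (-0.61, lost in 7) were also lower. *Trp63*, the master regulator of stratified epithelia, had a log2 difference of -0.68 ± 0.26 (SE, adjusted p = 0.0583) and was not called. *Foxn1*, active when cells leave the basal layer, was the member called higher (0.81).

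Of 6 Sox factors 2 were higher and 2 lower. *Sox11* (Entrez 20666, chromosome 12, 27334268 to 27342718), a SoxC factor of embryonic and wounded epidermis, was at 0.702, 0.712, 0.673 and 1.11 CPM in MKα3− and 42.9, 35.5, 39.3 and 38.5 CPM in MKα3+ cells, a log2 difference of 5.61 ± 0.28 (SE, adjusted p = 3.46e-10). *Sox4*, of the same group, was at 43.4, 98.4, 51.8 and 81.1 CPM in MKα3− and 217, 168, 167 and 138 CPM in MKα3+ cells, a log2 difference of 1.39 ± 0.27 (SE, adjusted p = 8.43e-04), with an antisense gene over 54.6% of its exons. *Sox2*, known in stem and Merkel cells of skin (Entrez 20674, chromosome 3, 34649995 to 34652461), was at 20.8, 30.1, 32.1 and 29.5 CPM in MKα3− and 1.53, 0.922, 0.862 and 0.612 CPM in MKα3+ cells, a log2 difference of -4.87 ± 0.36 (SE, adjusted p = 3.00e-08), and *Sox13* was lower as well (-3.18). The 4 values were 6.13, 1.02, -4.97 and -2.88 in the LN332 libraries.

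Hox genes, which record body position, had 7 of 23 members lower and 2 higher. *Hoxa11* was at 63.9, 72.7, 65.6 and 66.4 CPM in MKα3− and 27.1, 34.4, 34.1 and 33.7 CPM in MKα3+ cells, a log2 difference of -1.06 ± 0.09 (SE, adjusted p = 1.54e-07). *Hoxb9* was at 41.5, 52.3, 43.99 and 44.9 CPM in MKα3− and 80.7, 92.5, 76.1 and 83.97 CPM in MKα3+ cells, a log2 difference of 0.87 ± 0.11 (SE, adjusted p = 1.43e-05), while *Hoxb3* (-0.79), *Hoxb5* (-0.60, lost in 4) and *Hoxb7* (-0.60, lost in 3) of the same cluster were lower. Antisense genes cover 24.8% of the exon bases of *Hoxa11* and 63.9% of those of *Hoxb3*.

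Genes tied to the mesenchymal transition did not share a direction, with 4 of 33 higher and 4 lower. *Cdh2*, *Fn1*, *Zeb2* (1.23, lost in 1) and *Twist1* (0.94) were higher. *Twist2* was at 26.8, 23.3, 28.2 and 22.4 CPM in MKα3− and 5.31, 4.89, 6.46 and 4.86 CPM in MKα3+ cells, a log2 difference of -2.23 ± 0.16 (SE, adjusted p = 1.46e-08), with an antisense gene over 46.5% of its exon bases. *Snai2*, Slug, was at 30.1, 37.1, 48.9 and 34.2 CPM in MKα3− and 17.9, 17.8, 21.5 and 19.3 CPM in MKα3+ cells, a log2 difference of -0.96 ± 0.19 (SE, adjusted p = 0.00123). *Vim* (0.94) was not called. Among markers of other cells, *Twist2* was the 1 of 7 fibroblast genes called, *Pmel* (-1.26) the 1 of 2 melanocyte genes and *Krt20* and *Sox2* 2 of 4 Merkel cell genes. Of 6 endothelial genes 0 were called by limma-voom, edgeR or DESeq2 and 0 had an unadjusted p under 0.05.

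Receptors and ligands for growth factors were called in 36.4% of the 44 members of the FGF, HGF, PDGF, VEGF and neurotrophin families, 9 higher and 7 lower. FGF receptors moved in both directions. *Fgfr2*, the keratinocyte receptor for FGF7 and FGF10, was at 7.51, 18.5, 19.02 and 19.9 CPM in MKα3− and 3.89, 4.33, 3.41 and 3.67 CPM in MKα3+ cells, a log2 difference of -1.99 ± 0.43 (SE, adjusted p = 0.00196). *Fgfr1* was at 0.316, 0.678, 0.779 and 1.69 CPM in MKα3− and 4.55, 2.93, 2.86 and 2.45 CPM in MKα3+ cells, a log2 difference of 2.06 ± 0.49 (SE, adjusted p = 0.00456), in the region of chromosome 8 with a median of 0.65. *Fgfr3* was lower (-0.90, lost in 1).

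Among secreted factors, *Csf1*, macrophage colony-stimulating factor, was at 123, 68.8, 84.5 and 88.4 CPM in MKα3− and 264, 238, 282 and 257 CPM in MKα3+ cells, a log2 difference of 1.54 ± 0.15 (SE, adjusted p = 4.98e-07). *Il34*, the other ligand of the receptor encoded by *Csf1r*, was at 4.702, 2.75, 2.904 and 6.63 CPM in MKα3− and 17.5, 10.1, 14.9 and 14.9 CPM in MKα3+ cells, a log2 difference of 1.83 ± 0.32 (SE, adjusted p = 3.45e-04). Both ligands were higher in all 4 MKα3+ libraries than in any MKα3− library. *Lyz2* in MKα3+ replicates 1 and 2 (45.3 and 53.2 CPM) was also above every MKα3− library. Whether these ligands and the macrophage-type RNA are related was not tested. *Pdgfb* (2.06), *Fgf11* (2.83) and *Vegfc* (0.84) were higher, and *Vegfd* (-1.09) and the FGF-binding protein *Fgfbp1* (-0.74) were lower. The receptors *Flt1* (1.91) and *Sort1* (1.96) were higher and *Ngfr* (-1.75) and *Mst1r* (-0.86) lower.

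EGF family genes had 3 of 18 members called in each direction. The ligands *Ereg* (-0.59, lost in 7), *Epgn* (-1.14, lost in 4) and *Nrg2* (-0.89, lost in 7) were lower, and *Hbegf* (0.57, lost in 8), the receptor inhibitor *Errfi1* (0.61) and *Lrig3* (0.83, lost in 2) were higher. *Egfr* was not called (-0.34, adjusted p = 0.206). Of 29 genes that report ERK activity, 4 were higher and 2 lower (20.7% called against 18.5% of all genes). *Dusp4*, an ERK phosphatase, was at 13.1, 10.9, 12.6 and 12.6 CPM in MKα3− and 38.97, 32.5, 35.5 and 33.7 CPM in MKα3+ cells, a log2 difference of 1.52 ± 0.19 (SE, adjusted p = 1.43e-05), on the part of chromosome 8 with a median of 0.53. *Phlda1* was lower (-0.69), with an antisense gene over 37.3% of its exon bases, and *Dusp6* (-0.39) and *Spry2* (0.00) were not called.

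AP-1 and immediate early genes had 3 of 23 members higher, *Batf3* (2.27), *Fos* (1.30, lost in 6) and *Jund* (0.72), the last with an antisense gene over 52.6% of its exon bases. *Fos* was at 98.4, 28.5, 23.7 and 31.3 CPM in MKα3− and 153, 95.6, 69.5 and 75.9 CPM in MKα3+ cells, a log2 difference of 1.30 ± 0.41 (SE, adjusted p = 0.0236, lost in 6), with replicate 1 the highest in both groups and overlap between them.

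In the TGF-β and BMP families 10 of 49 members were higher and 6 lower. The type I and II receptors *Tgfbr1* (0.73, lost in 2) and *Tgfbr2* (0.58, lost in 2), the coreceptor *Tgfbr3* (3.14) and the mediator *Smad3* (0.56) were higher. *Bmp6* was at 3.02, 3.02, 3.400 and 4.28 CPM in MKα3− and 0.546, 0.361, 0.118 and 0.144 CPM in MKα3+ cells, a log2 difference of -3.70 ± 0.48 (SE, adjusted p = 1.83e-05). *Inhba*, the activin A subunit, was at 0.246, 0.407, 0.106 and 0.345 CPM in MKα3− and 1.67, 1.44, 1.68 and 2.16 CPM in MKα3+ cells, a log2 difference of 2.71 ± 0.37 (SE, adjusted p = 2.73e-05), and *Fst*, the activin antagonist follistatin, was at 381, 606, 477 and 640.4 CPM in MKα3− and 134, 214, 234 and 208 CPM in MKα3+ cells, a log2 difference of -1.41 ± 0.20 (SE, adjusted p = 3.90e-05). Neither gene had overlapping groups. Among BMP antagonists *Nog* (2.16) was higher and *Chrd* (-2.12, lost in 1) lower, and the receptor *Bmpr1b* (2.41) was higher.

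Wnt genes had 11 of 38 members higher and 7 lower, 47.4% against 18.5% of all genes. Among ligands best known for canonical signalling, *Wnt3a* was at 10.3, 10.8, 17.6 and 9.602 CPM in MKα3− and 0.764, 1.24, 1.57 and 1.55 CPM in MKα3+ cells, a log2 difference of -3.23 ± 0.42 (SE, adjusted p = 1.53e-05). *Wnt6* (-2.35) and *Wnt10a* (-0.64, lost in 1) were lower, *Wnt7a* (0.52, lost in 4) and *Wnt7b* (0.67) were higher, and *Axin2*, a common target of β-catenin, had a log2 difference of -0.82 ± 0.27 (SE, adjusted p = 0.0326, lost in 8). *Wnt5a*, best known for noncanonical signalling, was at 1.404, 0.949, 1.35 and 2.04 CPM in MKα3− and 3.97, 5.01, 5.17 and 3.74 CPM in MKα3+ cells, a log2 difference of 1.66 ± 0.25 (SE, adjusted p = 6.94e-05). *Wnt11* (1.32, lost in 5) and the Wnt5a receptor *Ror1* (2.52) were higher too.

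*Fzd3*, a frizzled receptor of planar polarity, was at 0.386, 0.543, 0.283 and 0.587 CPM in MKα3− and 7.35, 6.21, 6.11 and 5.47 CPM in MKα3+ cells, a log2 difference of 3.80 ± 0.28 (SE, adjusted p = 2.67e-08). *Fzd10* (2.60) and *Fzd2* (1.28) were higher as well, and *Fzd7* (-0.53, lost in 9) was lower. The secreted antagonist *Sfrp1* was at 2.63, 1.76, 1.24 and 1.52 CPM in MKα3− and 0.546, 0.0401, 0.274 and 0.144 CPM in MKα3+ cells, a log2 difference of -3.10 ± 0.60 (SE, adjusted p = 8.54e-04). In Notch signalling 2 of 23 genes were higher, *Dtx4* (2.72) and *Rbpj* (0.67), and *Dtx3* (-0.64, lost in 1) was lower.

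Guidance cues, which steer axons and also epithelial cells, had 14 of 52 members higher and 3 lower. *Ephb2* was at 0.842, 1.19, 0.921 and 2.003 CPM in MKα3− and 9.24, 8.58, 7.68 and 6.33 CPM in MKα3+ cells, a log2 difference of 2.73 ± 0.35 (SE, adjusted p = 1.32e-05), and the ephrin *Efnb2*, its ligand, was at 51.5, 67.9, 46.1 and 63.3 CPM in MKα3− and 108, 136, 129 and 145 CPM in MKα3+ cells, a log2 difference of 1.19 ± 0.16 (SE, adjusted p = 2.75e-05). Semaphorin genes *Sema6a* (2.11), *Sema4f* (1.28), *Sema3e* (1.04) and *Sema7a* (1.03, lost in 5), netrins *Ntn1* (2.40) and *Ntn4* (1.09), *Robo1* (1.43, lost in 6) and its ligand *Slit2* (0.92, lost in 1) were higher. *Ephb6* (-1.50) and *Sema5a* (-1.62, lost in 7) were lower.

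Cytokine and chemokine genes were called in 38.5% of 52 members, 15 higher and 5 lower. Of the epithelial alarmins, *Tslp* was at 0.140, 0.0678, 0.142 and 0.104 CPM in MKα3− and 0.619, 0.521, 0.548 and 0.720 CPM in MKα3+ cells, a log2 difference of 2.29 ± 0.44 (SE, adjusted p = 8.22e-04), with 2 to 4 reads per MKα3− library. *Il33* was at 0.632, 0.203, 0.886 and 0.691 CPM in MKα3− and 4.403, 1.16, 2.27 and 2.05 CPM in MKα3+ cells, a log2 difference of 2.04 ± 0.48 (SE, adjusted p = 0.00429). *Cxcl5*, a neutrophil chemokine, was at 409, 338, 407 and 473 CPM in MKα3− and 513, 711, 1105 and 1053 CPM in MKα3+ cells, a log2 difference of 0.998 ± 0.23 (SE, adjusted p = 0.00355, lost in 1). The T cell chemokines *Ccl25* (1.84), *Ccl27a* (1.02, lost in 3) and *Ccl28* (1.56, lost in 1) and the cytokines *Il1a* (0.64, lost in 2), *Il1b* (1.10, lost in 6), *Il18* (0.82, lost in 2) and *Il23a* (0.94, lost in 5) were higher. *Il1b* was highest in MKα3+ replicates 3 and 4 (3.02 to 7.16 CPM over the group), as *Lyz2* was.

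Lower members were *Ccl2*, a monocyte chemokine, at 73.9, 22.7, 52.00 and 30.2 CPM in MKα3− and 33.6, 9.502, 17.6 and 11.6 CPM in MKα3+ cells with overlapping groups (-1.32, lost in 8), *Tnfsf10* (-1.18, lost in 1) and *Tnfsf9* (-0.65, lost in 3). The prostaglandin synthesis gene *Ptgs1*, cyclooxygenase 1, was at 104, 92.7, 86.5 and 128 CPM in MKα3− and 42.4, 21.05, 30.3 and 42.2 CPM in MKα3+ cells, a log2 difference of -1.63 ± 0.26 (SE, adjusted p = 1.69e-04). *Ptges* was lower as well (-0.73, lost in 1).

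Interferon-stimulated and antigen presentation genes had 10 of 68 members lower and 4 higher (20.6% called against 18.5% of all genes). The lower ones were interferon-stimulated or class I genes. *H2-T23*, a nonclassical class I gene, was at 295, 158, 215 and 164 CPM in MKα3− and 26.4, 16.5, 20.4 and 17.4 CPM in MKα3+ cells, a log2 difference of -3.34 ± 0.26 (SE, adjusted p = 4.46e-08). *Oas2*, an antiviral synthetase, was at 240.5, 116, 219 and 118 CPM in MKα3− and 49.4, 33.5, 51.2 and 46.5 CPM in MKα3+ cells, a log2 difference of -1.88 ± 0.31 (SE, adjusted p = 1.83e-04). *Dhx58*, a RIG-I-like receptor, was at 134, 35.6, 106 and 52.6 CPM in MKα3− and 23.6, 10.3, 14.1 and 13.3 CPM in MKα3+ cells, a log2 difference of -2.29 ± 0.42 (SE, adjusted p = 5.34e-04). *Gbp5* (-1.86), *Mx1* (-1.68, lost in 4), *Oas3* (-0.74), *Irf7* (-0.74, lost in 6), *Ifih1* (-0.56, lost in 3), *H2-Q6* (-1.24) and *Cd274* (-0.68, lost in 1) were lower too, and reads of class I genes may be shared among close copies. Levels within MKα3− cells varied together, with replicates 1 and 3 above 2 and 4 for *Oas2* and *Dhx58*.

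The 4 higher members were all of the class II pathway. *Ciita*, its transactivator, was at 3.54, 3.02, 3.33 and 4.14 CPM in MKα3− and 10.3, 6.896, 7.56 and 8.31 CPM in MKα3+ cells, a log2 difference of 1.23 ± 0.24 (SE, adjusted p = 7.78e-04). *H2-Aa* was at 3.86, 2.31, 3.01 and 3.799 CPM in MKα3− and 6.95, 5.17, 7.36 and 6.800 CPM in MKα3+ cells, a log2 difference of 1.04 ± 0.21 (SE, adjusted p = 0.00102). *H2-Ab1* (0.83, lost in 5) and the invariant chain *Cd74* (0.80, lost in 1) were higher with overlapping groups. *Ciita* was highest in MKα3+ replicate 1, and the MKα3+ libraries of *H2-Aa* lay between 5.17 and 7.36 CPM. Without MKα3+ replicates 3 and 4, 2 members of the list were called higher, and the calls of *H2-Ab1* and *Cd74* were lost. The part of macrophage-type RNA in these 4 differences was not tested.

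Genes of growth and division were mostly not called. Of 52 DNA replication genes 1 was called, *E2f2*, at 3.26, 2.34, 2.69 and 2.49 CPM in MKα3− and 0.800, 1.203, 0.783 and 1.19 CPM in MKα3+ cells, a log2 difference of -1.44 ± 0.29 (SE, adjusted p = 0.00112), and the list's median was -0.10, with 21 genes at an unadjusted p under 0.05. Among 48 mitotic genes 4 were lower, *Ccnb1* (-0.59, lost in 2), *Cenpa* (-0.59, lost in 3), *Ube2c* (-0.54, lost in 8) and *Cdk1* (-0.53, lost in 4), and *Ckap2* (1.37) was higher. Without both libraries numbered 1, 1 mitotic gene was called, and with regional medians subtracted 2 were. *Mki67* was not called (0.09, adjusted p = 0.766).

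Of 21 G1 cyclin and inhibitor genes, *Cdkn1c*, the imprinted inhibitor p57, was at 9.83, 6.31, 7.15 and 6.04 CPM in MKα3− and 0.255, 0.481, 0.353 and 0.468 CPM in MKα3+ cells, a log2 difference of -4.19 ± 0.37 (SE, adjusted p = 2.19e-07), with a gene on the opposite strand over 30.3% of its exons. *Cdk6* was called higher, a log2 difference of 0.72 ± 0.25 (SE, adjusted p = 0.0383, lost in 8). Targets of p53 had 4 of 29 members lower and 1 higher (17.2% called against 18.5% of all genes). *Mdm2* (-0.72, lost in 5) and *Perp* (-0.70) lie on chromosome 10 and *Phlda3* (-0.75, lost in 1) on chromosome 1, where medians over neighbouring genes were -0.23, -0.13 and -0.27, and *Pmaip1* was lower (-1.02, lost in 1). *Eda2r* was higher (1.56).

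Glycolytic and hypoxia-responsive genes had 8 of 42 members lower and 1 higher (against 7.56% of all genes lower). *Aldoc* was at 48.4, 51.6, 55.1 and 46.8 CPM in MKα3− and 15.1, 15.9, 20.4 and 19.2 CPM in MKα3+ cells, a log2 difference of -1.52 ± 0.12 (SE, adjusted p = 3.90e-08). *Slc2a1*, the glucose transporter GLUT1, was at 214, 205, 262 and 214 CPM in MKα3− and 117, 139, 146 and 138 CPM in MKα3+ cells, a log2 difference of -0.73 ± 0.19 (SE, adjusted p = 0.00711). *Pfkl* (-0.99, on chromosome 10 with a regional median of -0.39), *Hk1* (-0.52, lost in 4), the carbonic anhydrase *Car12* (-1.27), *Bnip3* (-0.63, lost in 4) and *Egln3* (-3.31), an oxygen sensor, were lower. *Ldhb* was called higher at 0.105 to 0.484 CPM in MKα3− cells and 0.468 to 1.201 CPM in MKα3+ cells with overlap. Its call was lost without MKα3− replicate 1, without MKα3+ replicate 1 or 2, and without both libraries numbered 1, where 0 members of the list were called higher. Of 79 oxidative phosphorylation genes 0 were called by limma-voom, edgeR or DESeq2, 10 had an unadjusted p under 0.05, and the median was -0.01.

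Glutathione and related redox genes had 9 of 53 members lower and 5 higher. *Gpx2*, an epithelial glutathione peroxidase and NRF2 target, was at 188, 136, 139 and 123 CPM in MKα3− and 36.3, 26.8, 27.2 and 24.4 CPM in MKα3+ cells, a log2 difference of -2.35 ± 0.20 (SE, adjusted p = 1.47e-07). *Gsta4* was at 313, 227, 261 and 241 CPM in MKα3− and 95.3, 60.1, 50.3 and 48.4 CPM in MKα3+ cells, a log2 difference of -2.08 ± 0.19 (SE, adjusted p = 2.91e-07). *Gsto1* was at 2299.6, 2034, 2098 and 1987 CPM in MKα3− and 891, 645, 648 and 593 CPM in MKα3+ cells, a log2 difference of -1.62 ± 0.15 (SE, adjusted p = 2.37e-07). *Gsta3* (-2.16), *Gsta1* (-2.00, lost in 1), *Gsta2* (-1.51, lost in 7), *Nqo1* (-1.07, lost in 1), *Cat* (-0.83) and *G6pdx* (-0.73) were lower as well, with *Gsta1* and *Gsta2* uncertain as near-identical copies. The drug transporter *Abcc3* was at 15.3, 11.7, 12.3 and 14.99 CPM in MKα3− and 49.3, 60.4, 61.2 and 54.4 CPM in MKα3+ cells, a log2 difference of 2.06 ± 0.12 (SE, adjusted p = 2.07e-09), and *Aldh1a1* (1.35) and *Hmox1* (0.54, lost in 3) were higher.

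Amino acid metabolism had 8 of 54 members in each direction, among them the largest increase among genes with no overlap and a mean log2 CPM of at least 1. *Gatm*, which makes the creatine precursor, was at 0.421, 0.271, 0.992 and 1.52 CPM in MKα3− and 51.9, 49.4, 53.5 and 52.7 CPM in MKα3+ cells, a log2 difference of 6.29 ± 0.36 (SE, adjusted p = 1.80e-09). *Slc25a13*, the mitochondrial aspartate and glutamate carrier, was at 55.9, 56.9, 58.5 and 51.6 CPM in MKα3− and 0.291, 0.561, 0.392 and 0.396 CPM in MKα3+ cells, a log2 difference of -7.06 ± 0.38 (SE, adjusted p = 8.93e-10), and its relative *Slc25a12* was lower (-0.60, lost in 2). *Ckmt1*, mitochondrial creatine kinase, was lower (-1.51, lost in 1). *Bcat1* (3.33), *Glul* (1.41), *Odc1* (0.90), *Pycr1* (0.67) and the glutamine transporter *Slc38a1* (2.05) were higher, and *Arg2* (-1.64) and *Aldh1l1* (-1.38) were lower.

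Lipid genes had 5 of 46 members higher and 1 lower. The cholesterol exporter *Abcg1* was at 7.54, 2.88, 3.12 and 2.21 CPM in MKα3− and 25.8, 19.9, 21.3 and 19.3 CPM in MKα3+ cells, a log2 difference of 2.61 ± 0.27 (SE, adjusted p = 1.30e-06). *Abca1*, its partner, had a log2 difference of 1.56 ± 0.51 (SE, adjusted p = 0.029, lost in 6) with the highest values in MKα3+ replicates 3 and 4. The elongases *Elovl4* (0.95), *Elovl6* (1.05, lost in 7) and *Elovl7* (1.20) were higher and *Srebf1* (-0.57, lost in 4) lower.

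Of 82 ribosomal protein genes 6 were lower and 0 higher (7.32% against 7.56% of all genes lower), with a median of -0.24. The 6 were *Rps15* (-0.69, lost in 1), *Rps23* (-0.64, lost in 2), *Rpl41* (-0.58, lost in 2), *Rpl7* (-0.55, lost in 2), *Rps26* (-0.52, lost in 4) and *Rps12* (-0.51, lost in 6), and with regional medians subtracted 0 were called. In the LN332 libraries 21 were lower, with a median of -0.37. Ribosomal protein genes have many near-identical pseudogene copies and their counts are uncertain. Of 37 proteasome genes 1 was called, *Psma7* (-0.53, lost in 6), and of 26 chaperone and secretory stress genes *Sec24d* (0.83) and *Atf6* (0.55, lost in 3) were higher.

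Endocytic genes had 4 of 34 members higher and 1 lower (14.7% called against 18.5% of all genes). *Rin3*, a Rab5 exchange factor (Entrez 217835, chromosome 12, 102282840 to 102390854), was at 0.561, 0.678, 0.921 and 1.796 CPM in MKα3− and 45.6, 45.3, 51.00 and 50.01 CPM in MKα3+ cells, a log2 difference of 5.72 ± 0.26 (SE, adjusted p = 9.67e-11), while its relative *Rin2* was at 42.4, 31.4, 37.3 and 36.6 CPM in MKα3− and 18.6, 15.9, 20.5 and 17.3 CPM in MKα3+ cells, a log2 difference of -1.03 ± 0.13 (SE, adjusted p = 1.11e-05). *Rab11fip1* (1.48), *Dnm1* (1.42) and *Dab2* (0.58, lost in 2) were higher. Of 24 S100 and annexin genes, *Anxa5* alone was called (0.60, lost in 1). Imprinted genes had 3 of 17 members higher and 4 lower, with *Peg3* at 0.140, 0.407, 0.425 and 0.484 CPM in MKα3− and 5.203, 4.93, 5.09 and 4.14 CPM in MKα3+ cells, a log2 difference of 3.79 ± 0.34 (SE, adjusted p = 2.79e-07), and *Plagl1* (1.92) and *Mest* (0.60, lost in 1) higher, and *Phlda2* (-0.85), *Slc22a18* (-1.13, lost in 8) and *Igf2r* (-0.69) lower beside *Cdkn1c*.

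Genes outside the lists were also among the largest changes. *Crmp1*, a collapsin response mediator that acts on microtubules, was at 1.02, 1.59, 1.38 and 2.97 CPM in MKα3− and 64.8, 58.9, 67.3 and 59.8 CPM in MKα3+ cells, a log2 difference of 5.27 ± 0.26 (SE, adjusted p = 3.33e-10). *Slain1*, a microtubule plus-end protein, was at 0.421, 0.271, 0.531 and 0.518 CPM in MKα3− and 15.8, 14.2, 15.8 and 17.7 CPM in MKα3+ cells, a log2 difference of 5.18 ± 0.25 (SE, adjusted p = 2.20e-10). *Miga1* (5.61), *Tcfl5* (5.36) and the protocadherin *Pcdh19* (5.15) completed the 10 largest increases chosen in that way.

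*Igf2bp3*, an oncofetal RNA-binding protein, was at 32.2, 33.8, 35.7 and 30.4 CPM in MKα3− and 1.78, 1.604, 1.96 and 1.76 CPM in MKα3+ cells, a log2 difference of -4.20 ± 0.17 (SE, adjusted p = 3.18e-11). *Pacs1*, a sorting adaptor, was at 66.2, 70.8, 65.5 and 61.2 CPM in MKα3− and 2.04, 2.33, 3.02 and 1.91 CPM in MKα3+ cells, a log2 difference of -4.84 ± 0.21 (SE, adjusted p = 7.62e-11). *Lhfpl4* (-5.21), *Casd1* (-4.79), *Slc50a1* (-4.70), *Ppt2* (-4.41) and *Akip1* (-6.74) were the other large decreases, where *Ppt2* shares 43.1% of its exon bases with another gene on the same strand.

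The difference between the lines also varied by chromosome. Positions in mm10 (RefSeq GRCm38.p6) were found for 14072 genes (97.2%). On chromosome 10 the median log2 fold change was -0.29 and 132 of 658 genes (20.1%) were called lower, and on chromosome 1 the median was -0.19 with 16.7% lower, against 7.56% of all genes. Chromosomes 4 (16.9%), 8 (17.9%) and X (18.8%) had larger shares called higher than the 10.9% of all genes. Chromosome medians in the LN332 libraries were close to those in vehicle, at -0.28 for chromosome 10 and -0.19 for chromosome 1.

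Within chromosomes the extent of the shift differed. Of 137 windows of 20 Mb, 7 had a median above 0.3 and 6 a median below -0.3. On chromosome 10 all windows had negative medians, from -0.36 to -0.12, as did all windows of chromosome 1 below 160 Mb. On chromosome 8 the windows above 60 Mb had medians between -0.02 and 0.05. In the first 20 Mb of chromosome 8 the median was 0.56 with 33 of 66 genes higher, and between 20 and 40 Mb it was 0.64 with 48 of 87 higher. On chromosome 4 between 40 and 60 Mb, 48 of 133 genes were higher and 0 lower (median 0.45). On chromosome 10 between 80 and 100 Mb, 52 of 174 were lower and 7 higher (median -0.36). The LN332 medians of the 4 windows with gene counts given were 0.61, 0.67, 0.44 and -0.36.

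The median of the surrounding 20 Mb was then subtracted from the log2 fold change of each of the 14072 genes with a position. Adjusted p-values were kept from the fit, so no gene was tested again. At the same thresholds 2209 genes were called, 1344 higher and 865 lower. The log2 fold changes after subtraction stayed past the threshold for *Krt19* (5.90), *Dsc3* (-7.90), *Fbln2* (4.60), *Cavin3* (5.65), *Sox11* (5.51), *Sox2* (-4.97), *Ccn1* (1.30), *Fgfr1* (1.41) and *Lamb3* (-0.68). The calls of *Dst* (-0.39), *Serpinb5* (-0.36), *Mdm2* (-0.49), *Phlda3* (-0.47), *Cdk1* (-0.29), *Cldn1* (-0.44) and *Ctnnb1* (0.17) were lost.

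**Figure D5:**
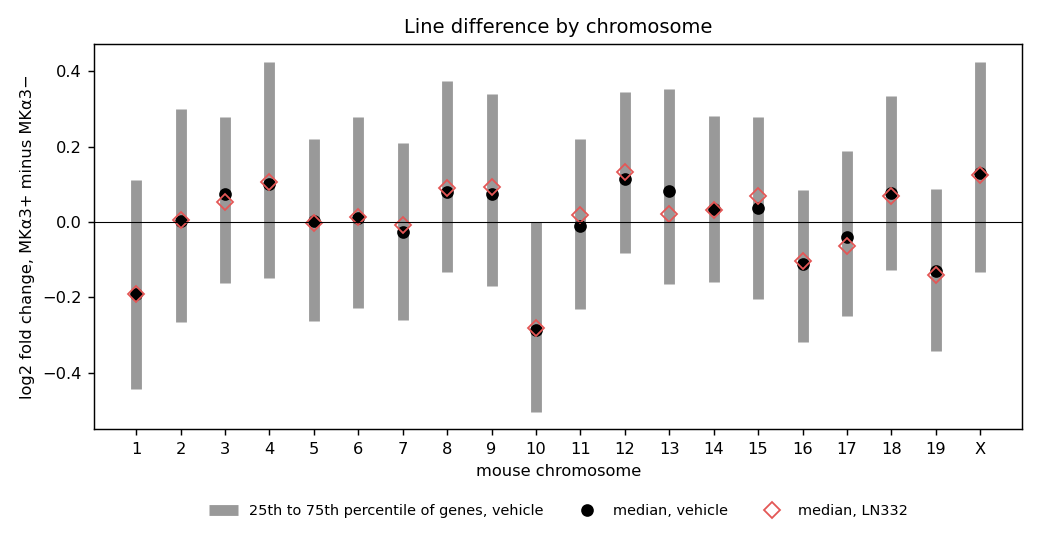
For each mouse chromosome, the median log2 fold change between MKα3+ and MKα3− cells over its genes in vehicle (black points) and in LN332 (red diamonds), with a grey bar from the 25th to the 75th percentile in vehicle. Chromosomes 10 (-0.29) and 1 (-0.19) have the lowest vehicle medians and chromosome X the highest (0.13), and the LN332 medians lie close to them.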

How the data were processed

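Bulk RNA-seq of 16 libraries (4 each of MKα3− and MKα3+ keratinocytes with vehicle or LN332) was used, and the 8 vehicle-treated libraries were compared. The authors deposited whole-number read counts per gene and library with Entrez identifiers, made by aligning reads to mm10 with Rsubread and counting them with featureCounts and its built-in annotation, and the labels' processing notes name bcl2fastq 2.20. Whether counting used strand is not given in the sources used here, so counts of overlapping genes are uncertain. Overlaps are printed for a selection of genes only. Every gene in the table has a CPM over 0.5 in at least 6 libraries, and the table holds no gene below that level. Counts that fell outside annotated genes were not analysed here.

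Counts were normalised by TMM and fitted with limma-voom (limma 3.58.1, edgeR 4.0.16, R 4.3.3) in a model of 4 groups over all 16 libraries without a replicate term, after a filter of CPM over 0.5 in at least 3 libraries that removed 0 genes. MKα3+ minus MKα3− in vehicle was tested with Benjamini-Hochberg adjustment over 14474 genes. The fit was tested on simulated data. Groups came from the labels, with T numbers as replicate numbers. The members, gene lists and comparisons were chosen with earlier results of these data known, so counts per list are descriptions beside the share of all genes called. List medians are over measured members.

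The genes named were *Itga3* and *Itgb1*, the 10 largest changes in each direction among called genes whose groups did not overlap and whose mean log2 CPM was 1 or more, up to 4 called members of each list per direction, the 2 uncalled members of each list with the highest level, and all integrins, laminins, keratins, desmosomal genes and cell type markers, of which a selection is printed. A further 106 genes in the text were chosen after their values were seen. Gene names of 284 identifiers were not found. Positions and promoters came from RefSeq GRCm38.p6. A planned comparison of promoter motifs between called sets was void, since 75.3% of tested genes had a promoter sequence, under the 80% required.

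The 16 alternatives counted for each gene were the quasi-likelihood test of edgeR, DESeq2 (1.42.0), limma-voom with the size factors of DESeq2 or with library sizes only, a replicate block, the median of the surrounding 20 Mb subtracted, each of the 8 libraries left out, and both libraries numbered 1 or MKα3+ replicates 3 and 4 left out. The subtraction of the regional median changed log2 fold changes only, kept the adjusted p of the main fit and left out genes without a position. For the total count, a minimum count of 10, quality weights, the vehicle libraries alone and other fold thresholds were also tried.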

Additional observations from a re-analysis of the deposited data

Results flagged for a closer look

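The level of a gene in 1 library stood apart from the other 3 of its group, by a gap larger than Dixon's 95% critical value for 4 samples, in 21 of the 218 groups of 4 libraries whose values are described above. By chance about 1 in 20 groups would show such a gap, which is 10.9 here. In MKα3− replicate 1 these were *Abcg1* at 7.54 CPM (others 2.21 to 3.12), *Adamts1* at 2.07 CPM (others 3.76 to 4.11), *Fgfr2* at 7.51 CPM (others 18.5 to 19.9), *Fos* at 98.4 CPM (others 23.7 to 31.3), *Krt18* at 516 CPM (others 278 to 303), *Nectin3* at 7.97 CPM (others 11.7 to 11.9) and *Plau* at 907 CPM (others 462 to 535). In MKα3− replicate 3 these were *Dsc3* at 112 CPM (others 57 to 64.7), *Pkp2* at 13.1 CPM (others 19.7 to 20.4), *Slc2a1* at 262 CPM (others 205 to 214), *Spp1* at 0.744 CPM (others 0.414 to 0.456), *Tfap2c* at 4.75 CPM (others 2.18 to 2.37), *Thbs2* at 19.3 CPM (others 8.53 to 9.12) and *Wnt3a* at 17.6 CPM (others 9.6 to 10.8). In MKα3− replicate 4 these were *Itga2* at 8.67 CPM (others 2.37 to 2.94) and *Sox11* at 1.11 CPM (others 0.673 to 0.712). In MKα3+ replicate 1 these were *Arhgef7* at 184 CPM (others 162 to 164), *Hoxa11* at 27.1 CPM (others 33.7 to 34.4), *Perp* at 364 CPM (others 401 to 408) and *Sox21* at 2.44 CPM (others 0.862 to 1.12). In MKα3+ replicate 2 this was *Cavin3* at 73.2 CPM (others 100 to 103). All these values entered the fits as they are.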

How the results depend on the processing

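Precision was limited by having 4 libraries a group from 1 line each and, for genes with few reads per library such as *Tslp*, by counting. Of 485 genes named in the text or by the naming rule 329 were called, and 118 of these lost the call in at least 1 of 16 alternatives. Of 7759 values of these genes under the alternatives, 7225 kept a call in the same direction or stayed uncalled. A call was lost in 470 and gained in 64, and no call changed sign. The direction of genes that stayed uncalled was not compared.

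At an absolute log2 fold change over 1, 1362 genes were called (899 higher, 463 lower), and 4115 passed the adjusted p alone, 1896 of them lower. The count of called genes was 2653 with edgeR, 2807 with DESeq2, 2669 with DESeq2 size factors, 2646 with library size alone, 2168 with a minimum count of 10, 3249 with quality weights, 2707 with the vehicle libraries alone, 2209 with regional medians subtracted, and between 2345 and 2683 with each library left out in turn. A filter on low counts removed no gene, so the count without it was 2676. Libraries with the same number did not all deviate together (correlations of 0.267, 0.262, 0.0913 and 0.107, with 3 of 4 numbers best matched to their own). A replicate block gave 3056 calls, 1770 higher and 1286 lower, and the counts per list that moved by over 1.5 times were 2 for the integrin list (from 1), 5 for the basal and stress keratin list (from 2), 6 for the AP-1 list (from 3), 3 for the S100 and annexin list (from 1), 6 for the immune marker list (from 3) and 7 for the keratinocyte marker list (from 3).

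With edgeR the count was 6 for the immune marker list (from 3), and with DESeq2 6 for the immune marker list (from 3) and 5 for the keratinocyte marker list (from 3). Without both libraries numbered 1, an alternative chosen after seeing the data, it was 1 for the mitosis list (from 5) and 1 for the G1 list (from 2). Without MKα3+ replicates 3 and 4, also chosen after seeing the data, the counts that moved were 0 for the integrin list (from 1), 1 for the laminin and hemidesmosome list (from 2), 1 for the basal and stress keratin list (from 2), 7 for the terminal differentiation list (from 12), 5 for the mesenchymal transition list (from 8), 5 for the Hox list (from 9), 3 for the EGF family list (from 6), 10 for the TGF-β and BMP list (from 16), 13 for the chemokine and cytokine list (from 20), 9 for the interferon list (from 14), 1 for the G1 list (from 2), 3 for the p53 list (from 5), 3 for the lipid list (from 6), 10 for the amino acid list (from 16), 1 for the ER chaperone list (from 2), 1 for the ribosomal protein list (from 6), 0 for the proteasome list (from 1) and 0 for the immune marker list (from 3). With regional medians subtracted, added for the lists after seeing the data, they were 1 for the laminin and hemidesmosome list (from 2), 2 for the caveolae list (from 1), 2 for the mitosis list (from 5), 3 for the p53 list (from 5), 1 for the oxidative phosphorylation list (from 0), 0 for the ribosomal protein list (from 6), 0 for the proteasome list (from 1) and 0 for the S100 and annexin list (from 1). With each library left out in turn the counts ranged, with the libraries whose absence moved them by over 1.5 times in parentheses, from 0 to 2 for the integrin list (MKα3− 2, 3 and 4 and MKα3+ 3 and 4), 1 to 2 for the laminin and hemidesmosome list (MKα3− 4 and MKα3+ 3), 2 to 4 for the basal and stress keratin list (MKα3− 1), 2 to 5 for the ERK list (MKα3− 3 and MKα3+ 2 and 3), 2 to 5 for the EGF family list (MKα3− 3 and 4 and MKα3+ 1, 2 and 3), 13 to 20 for the chemokine and cytokine list (MKα3− 3) and 1 to 7 for the mitosis list (MKα3− 1 and MKα3+ 1). They also ranged from 1 to 3 for the G1 list (MKα3− 1, 2 and 3 and MKα3+ 2, 3 and 4), 0 to 1 for the oxidative phosphorylation list (MKα3− 2 and MKα3+ 1), 3 to 5 for the lipid list (MKα3− 3), 5 to 10 for the ribosomal protein list (MKα3− 4), 0 to 1 for the proteasome list (MKα3− 1 and MKα3+ 2, 3 and 4) and 1 to 6 for the immune marker list (MKα3− 1, 2, 3 and 4 and MKα3+ 2, 3 and 4). The cause of these changes was not tested. The other counts per list stayed within 1.5 times under every alternative run.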
